A study of Mus musculus with 24 samples.

Results

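The acute phase proteins of the liver were followed across 8 groups of mice, in which 2 strains met 4 treatments. Their genes, read by mRNA on arrays, were Saa1, Saa2, Saa3, Saa4, Orm1, Orm2, Hp, Hpx, Apcs and Lcn2, and every probe set annotated with one of these symbols or its older names was kept. This gave 13 probe sets of the 12422 that held values, for 9 of the 10 genes. Saa1 has no probe set of its own, 1 probe set carries both Orm1 and Orm2, and the other 12 carry 1 symbol each. Because the reference lists Saa1 and Saa2 as older names of each other, signal from these near-identical genes cannot be told apart here. Saa2, Hpx and Lcn2 each had a pair of probe sets. For Saa2 and Hpx one of the pair has a name that marks probes shared within a family, and it is called the family probe set, while the dimmer one for Lcn2 is called the second.

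Each array held RNA from the whole liver of 1 male mouse aged 9 to 12 weeks, on a mixed SV129/C57BL/6 background. Wild-type mice were compared with PPARα-null mice, which lack the receptor in every tissue. Control mice ate the plain diet and stayed at room temperature. WY mice ate 500 ppm of WY-14,643, a PPARα agonist, for 1 week. HS mice were heated for 40 min at 42 °C, and WY+HS mice received the diet and then the heat. Livers for the arrays were taken 4 hours after heat by the description of the array experiment. The labels name later times as well. Each group held 3 mice, numbered 1 to 12 in wild-type mice and 13 to 24 in PPARα-null mice, in the order control, HS, WY and WY+HS. In whole liver, fewer cells of a type and less RNA per cell cannot be told apart.

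The acute phase response is the rapid change in plasma proteins that follows infection, injury or other stress. Interleukin-6 acts through gp130 and STAT3, interleukin-1 and tumour necrosis factor act through NF-kB, and C/EBP factors carry both signals to hepatocyte promoters. Serum amyloid A proteins, orosomucoids, haptoglobin, hemopexin, serum amyloid P and lipocalin-2 are positive acute phase proteins, whereas albumin and transthyretin fall. Ligands of PPARα are known to lower the output of several such genes, and the design allows the effects of the ligand and of heat to be read with and without the receptor.

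The promoters of 5 members are shown, of 6 that hold a match, because they hold letters of C/EBP or STAT, factors that carry the acute phase signal. RefSeq (GRCm38.p6) gave the 250 bases before the start for 8 of the 10 genes, all but Orm1 and Hp. The windows of Saa1 and Saa3 lie wholly or in large part within the annotated span of the gene itself, so they are counted but not shown. In the lines that follow, read 5′ to 3′ on the strand of the gene, capitals mark a match to the C/EBP letters TTGCNCAA or the STAT letters TTCNNNGAA on either strand. The windows are chr7:46751583-46751832 on the plus strand for Saa2, chr7:46732604-46732853 on the minus strand for Saa4, chr4:63362199-63362448 on the plus strand for Orm2, chr2:32387740-32387989 on the minus strand for Lcn2 and chr1:172895055-172895304 on the minus strand for Apcs.
Saa2: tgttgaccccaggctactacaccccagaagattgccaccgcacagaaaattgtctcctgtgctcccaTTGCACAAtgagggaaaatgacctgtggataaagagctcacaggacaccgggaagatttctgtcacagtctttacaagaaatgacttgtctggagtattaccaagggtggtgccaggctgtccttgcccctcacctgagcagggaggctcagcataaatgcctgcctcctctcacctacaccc
Saa4: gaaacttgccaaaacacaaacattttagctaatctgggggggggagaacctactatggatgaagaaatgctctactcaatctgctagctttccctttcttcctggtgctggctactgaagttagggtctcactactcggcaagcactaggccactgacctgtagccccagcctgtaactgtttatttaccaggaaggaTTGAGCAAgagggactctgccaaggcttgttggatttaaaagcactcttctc
Orm2: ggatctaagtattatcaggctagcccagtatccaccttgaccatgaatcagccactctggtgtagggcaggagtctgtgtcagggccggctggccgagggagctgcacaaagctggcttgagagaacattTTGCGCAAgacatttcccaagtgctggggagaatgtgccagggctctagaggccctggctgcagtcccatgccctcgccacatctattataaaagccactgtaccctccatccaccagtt
Lcn2: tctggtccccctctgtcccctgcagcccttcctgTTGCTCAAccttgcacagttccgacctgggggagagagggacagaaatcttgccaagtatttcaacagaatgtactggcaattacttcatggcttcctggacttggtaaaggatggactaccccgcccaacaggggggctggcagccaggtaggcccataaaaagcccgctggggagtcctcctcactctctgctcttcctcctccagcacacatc
Apcs: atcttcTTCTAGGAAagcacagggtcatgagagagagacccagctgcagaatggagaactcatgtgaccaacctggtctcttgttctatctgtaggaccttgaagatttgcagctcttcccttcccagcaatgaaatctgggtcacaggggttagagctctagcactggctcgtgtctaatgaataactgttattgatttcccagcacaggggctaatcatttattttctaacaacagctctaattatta

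Counted from the start, the C/EBP match lay at bases -183 to -176 in Saa2, -52 to -45 in Saa4, -120 to -113 in Orm2 and -216 to -209 in Lcn2, and the STAT match at -244 to -236 in Apcs. No match overlapped another. The C/EBP letters were present in 5 of the 8 windows (Saa1, Saa2, Saa4, Orm2 and Lcn2), and in 2.61% of all 32851 promoters of the same length. The STAT letters were present in 1 of 8, that of Apcs, and in 7.02% of all promoters. No window held an NF-kB motif (GGG, any 2 bases, TTTCC, in 1.41% of all promoters), a heat shock element (GAA, TTC and GAA, each spaced by any 2 bases, in 0.466%) or the PPAR direct repeat (AGGTCA repeated after any 1 base, in 0.0335%). The Saa1 and Saa2 windows were 94.8% identical over 251 aligned columns, whereas the Saa3 and Saa2 windows were 47.8% identical. The motifs were chosen after the sequences were seen, so the 5 of 8 is not a test against the share of all promoters. As near copies, the Saa1 and Saa2 windows are not separate counts. A match describes letters only and was not tested as a site.

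Array quality and labels were checked before the members were read. The deposited intensities had array medians of 15.2 to 40.5 and were brought to a common distribution. Values below a floor of 15.7 were set to it, and 9 of the 13 member probe sets stayed above the floor on all 24 arrays. Ppara itself was lower in all 3 PPARα-null control mice, at 185, 174 and 152, than in the wild-type controls at 315, 298 and 357. Among the other mice, wild-type HS mouse 5 read 181, within the range of 103 to 210 of the PPARα-null mice. Where the Ppara probes lie relative to the deletion was not examined. Of 105 probe sets that separated the strains in control mice, mouse 5 was nearer to the wild-type side in 71.4%. This was the lowest share of the wild-type treated mice, the others having 72.4 to 85.7%. The PPARα-null treated mice had 6.67 to 34.3%. Of the hepatocyte markers, Alb read between 8198 and 9080.4 on every array. Among the brightest probe sets the common distribution leaves few distinct values, so this narrow range is no check of quality. All 24 livers kept their labelled group.

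For 8 of the 13 probe sets, both groups of wild-type mice given WY lay below all other mice. When the 8 groups were ordered by mean log2 intensity, 9 of the 91 neighbouring pairs had mice that did not overlap. In 8 of these the gap separated the WY and WY+HS wild-type mice from the other 6 groups, for both Saa2, the 3 orosomucoid, both Hpx and the Apcs probe sets. The remaining gap separated WY from control wild-type mice for Saa3. Above that gap, groups next to each other in the order overlapped in all 8 probe sets. Groups were not ordered in this way for probe sets outside the members. Whether such gaps are more common among the members than among other probe sets is therefore not shown.

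**Figure D1:**
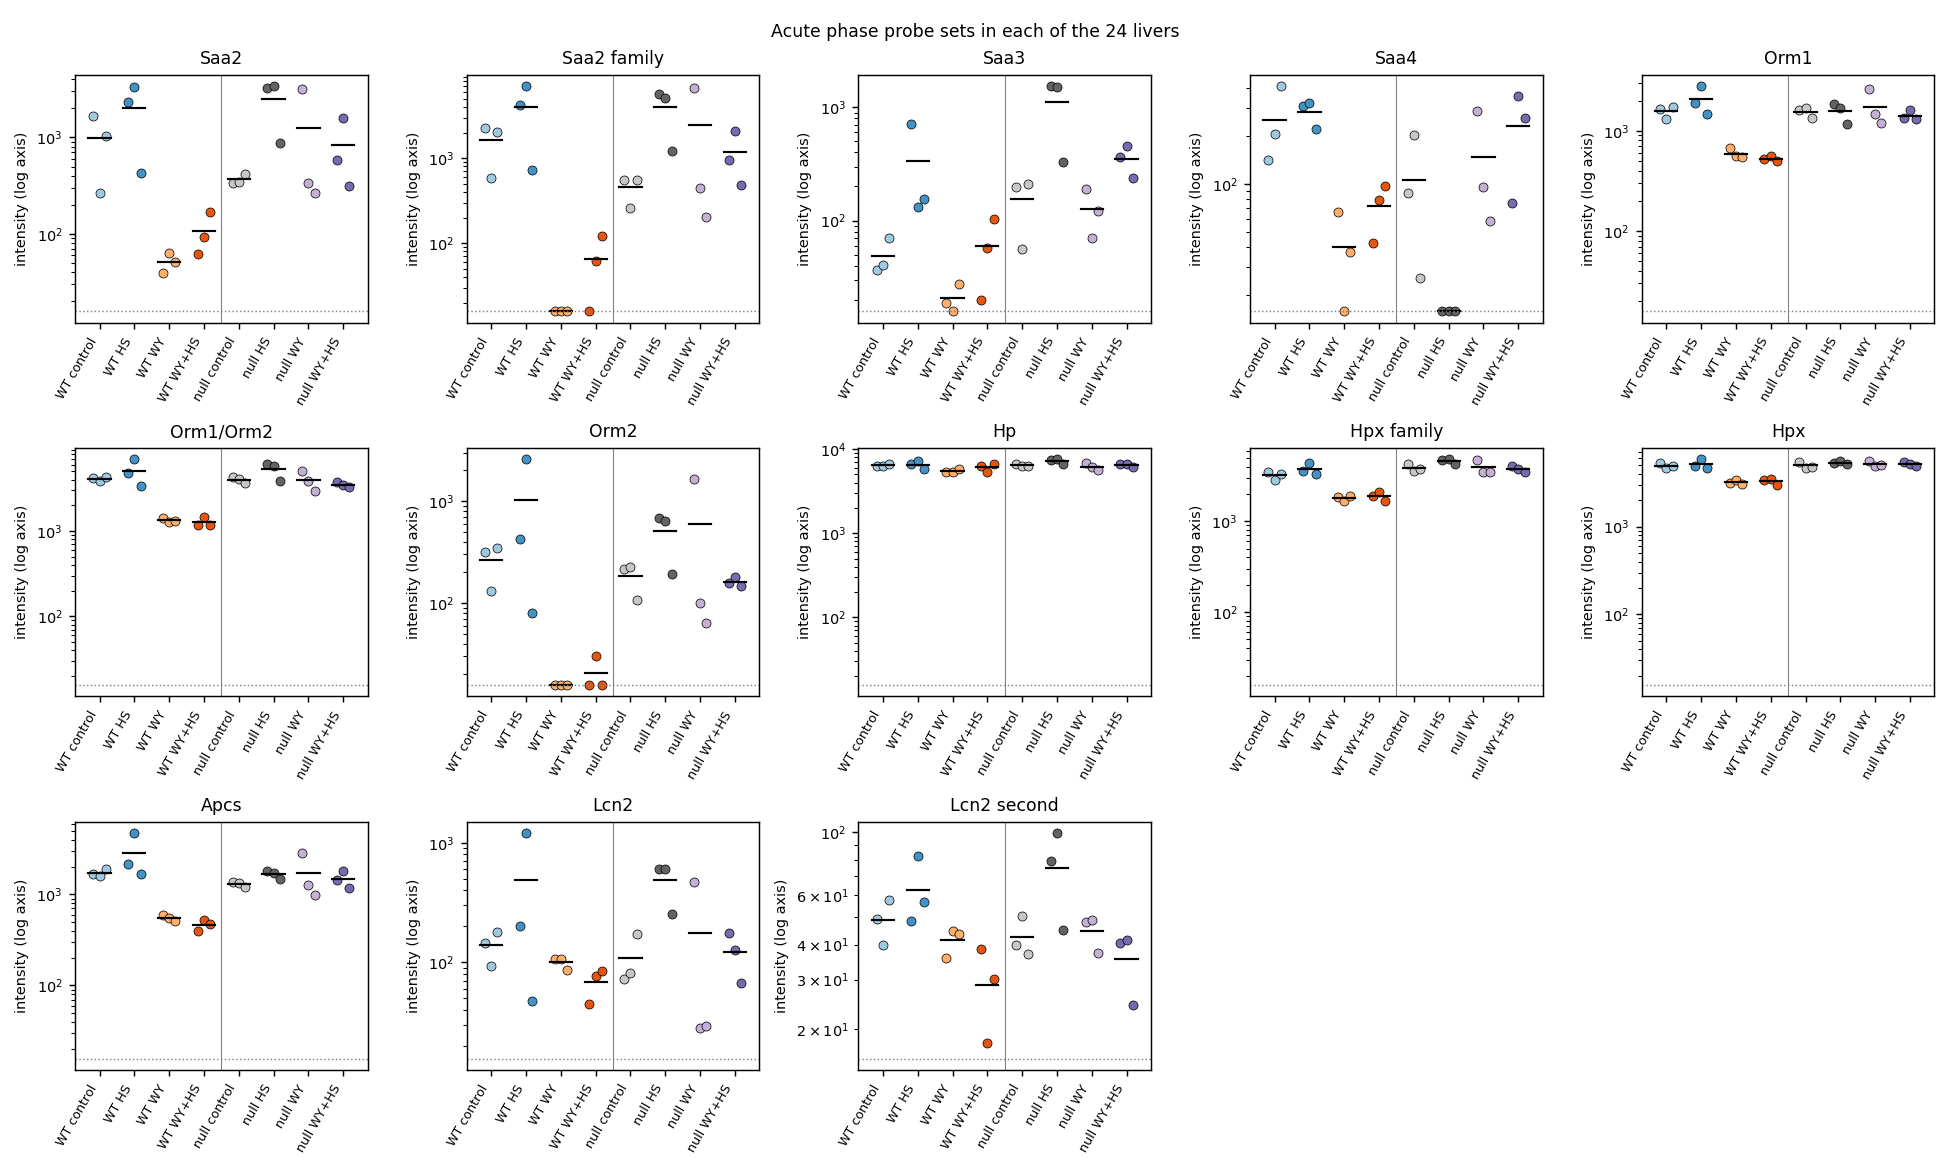
Normalized intensity (log axis) of the 13 acute phase probe sets in each of the 24 livers, 1 panel per probe set and 1 point per mouse. Short bars are group means, the dotted line is the floor of 15.7, and the wild-type WY and WY+HS mice lie lowest in 8 panels.

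WY lowered 9 of the 13 probe sets in wild-type mice (5.19% of all 12422 probe sets fell and 10.8% changed in either direction), and none rose. All 3 WY mice lay below all 3 controls in 11 of 13, against 12.6% of all probe sets. The median log2 change of the members was -1.40, and that of all probe sets was 0. The change spanned serum amyloid A, orosomucoid, hemopexin and serum amyloid P, while Saa3, Hp and both Lcn2 probe sets did not pass the test.

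Serum amyloid A apolipoproteins travel on HDL and, among the members, included the largest fall with WY. For Saa2, wild-type control mice read 1671, 264 and 1032, and WY mice read 39.3, 63.8 and 51.3. All WY mice lay below all controls, and the control mice themselves spread widely, with a mean of 989 ± 705 (SD, n = 3). The log2 change was -3.93 ± 0.97 (SE), limma adjusted p = 0.0131, a 15.2-fold decrease.

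The Saa2 family probe set can read both Saa1 and Saa2. Controls read 2258, 578 and 2021, and all 3 WY mice were at the floor. The decrease was therefore at least 87.7-fold (log2 change -6.46 ± 1.16 (SE), limma adjusted p = 0.0011).

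Saa4, the constitutive HDL-associated form, read 142, 205 and 414 in controls and 66.9, 15.7 and 37.4 in WY mice, of which the 15.7 is the floor. These groups did not overlap, and Saa4 fell by 2.75 on the log2 scale (SE 0.77, limma adjusted p = 0.0273). Saa3, which macrophages and adipocytes also make, read 36.6, 40.3 and 69.9 in controls and 18.7, 15.7 and 27.8 in WY mice. Its groups also did not overlap, but the log2 change of -1.22 ± 0.77 (SE), limma adjusted p = 0.456 did not pass. Leaving out single mice ended the call for Saa2 without mouse 1, 3 or 7 (largest adjusted p = 0.0697) and for Saa4 without mouse 2, 3, 8 or 9 (largest adjusted p = 0.132). The call for the Saa2 family probe set held in all 6 such fits.

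Orosomucoid, or α1-acid glycoprotein, is an abundant lipocalin that binds drugs and modulates immune cells. At the Orm1 probe set, control mice read 1642, 1321 and 1733, and WY mice read 670.5, 561 and 543. Every WY mouse was well below the lowest control, and the 2.64-fold decrease was far larger than the spread within either group (log2 change -1.40 ± 0.26 (SE), limma adjusted p = 0.00134). The probe set shared by Orm1 and Orm2 gave a similar picture, with 4172, 3853 and 4269.9 in controls and 1434, 1278 and 1299 in WY mice (3.07-fold, log2 change -1.62 ± 0.22 (SE), limma adjusted p = 9.45e-05).

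Orm2 alone, whose upstream window holds the palindrome shown in capitals, read 319, 132 and 345 in controls and was at the floor in all 3 WY mice. It was thus at least 15.5-fold lower (log2 change -3.95 ± 1.11 (SE), limma adjusted p = 0.0281). That call was lost when any WY mouse, or control mouse 1 or 3, was left out (largest adjusted p = 0.0917), whereas Orm1 and the shared probe set passed in all 6 such fits.

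Hemopexin and haptoglobin protect plasma from free heme and free hemoglobin. Hpx read 5239, 4579 and 4863 in controls and 3113, 3366 and 3076 in WY mice, a 1.54-fold decrease with small spread (log2 change -0.62 ± 0.09 (SE), limma adjusted p = 0.000122). The Hpx family probe set read 3521, 2856 and 3331 and 1858, 1662 and 1899 (1.79-fold, log2 change -0.84 ± 0.13 (SE), limma adjusted p = 0.000275). Hp was the member least altered. Its controls read 6353, 6353 and 6582 and its WY mice 5396, 5318 and 5814, which did not overlap but gave a log2 change of only -0.22 ± 0.09 (SE), limma adjusted p = 0.156. On every array Hp was among the 9th to 25th brightest probe sets, where the common distribution leaves few distinct values.

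Serum amyloid P, encoded by Apcs, is the acute phase pentraxin of the mouse. Controls read 1662, 1589 and 1883 and WY mice 595, 549.6 and 512, so that the groups were well separated (3.1-fold decrease, log2 change -1.63 ± 0.34 (SE), limma adjusted p = 0.00433). Lipocalin-2 sequesters the iron carriers of bacteria and is made by both hepatocytes and neutrophils. Lcn2 read 147, 93.4 and 179 in controls and 107, 108 and 85.9 in WY mice. These groups overlapped, and the log2 change was -0.44 ± 1.02 (SE), limma adjusted p = 1. The second Lcn2 probe set ranged over 17.9 to 99.7 in all mice and its WY change was -0.23 ± 0.31.

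**Figure D2:**
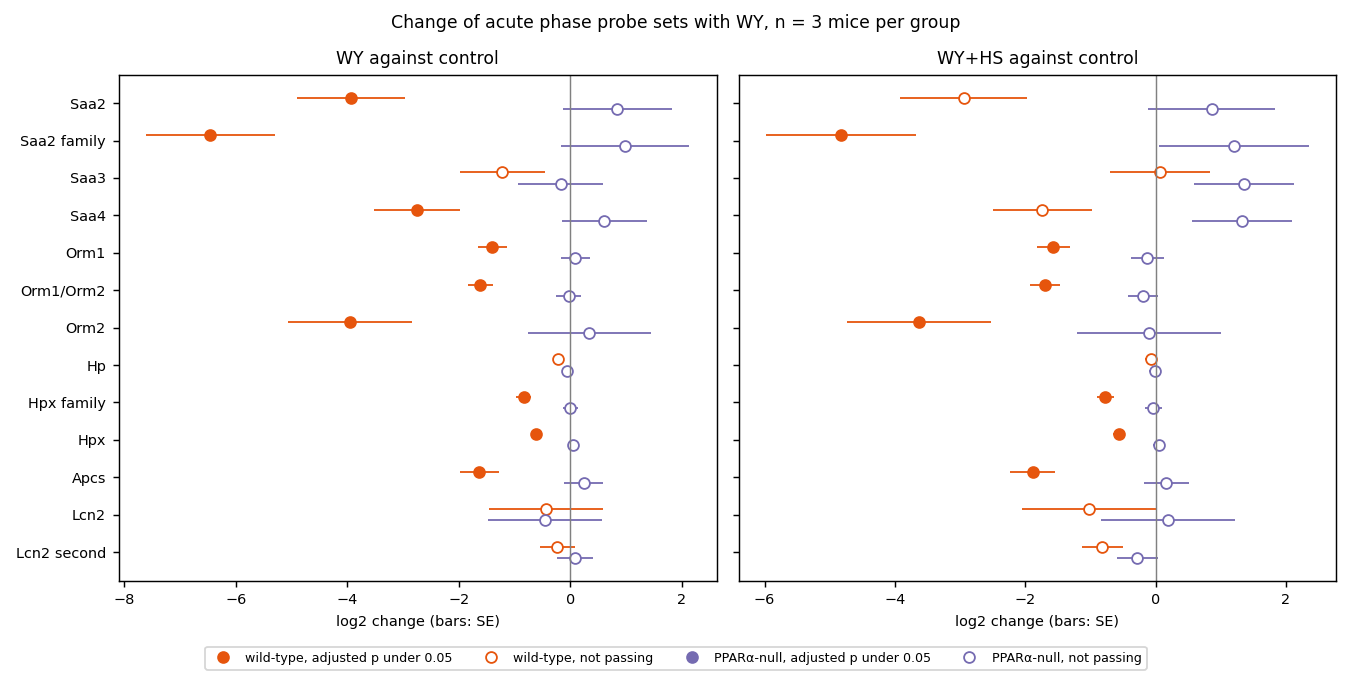
Log2 change (x axis, bars are SE) of the 13 probe sets with WY (left) and with WY+HS (right) against control, in wild-type (orange) and PPARα-null (purple) mice, 3 mice per group. Filled points passed an adjusted p of 0.05, as 9 and 7 orange points do and no purple point does.

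In PPARα-null mice WY left no acute phase probe set past the threshold, as limma called 1 of all 12422 (0.00805%), and 0 of the 13 members had an unadjusted p under 0.05. The median log2 change of the members was 0.08. Saa2 read 339, 342 and 422 in PPARα-null controls and 3167, 336 and 267 in PPARα-null WY mice. The high value belonged to mouse 19, which was the highest of its group in 12 of the 13 probe sets. In the same mouse Orm2 reached 1636, against 100.2 and 64.0 in its group mates. Apcs showed the same spread, with 2856, 1281 and 983 in PPARα-null WY mice and 1356, 1347 and 1202 in PPARα-null controls.

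The dependence of the WY effect on the receptor was tested as an interaction, the log2 change in PPARα-null minus that in wild-type mice. It passed for 6 of the 13 probe sets, all higher in PPARα-null mice (2.19% of all probe sets were higher and 5.13% passed in either direction). The 6 were the Saa2 family probe set (7.44 ± 1.63 (SE), limma adjusted p = 0.0106), Orm1 (1.49 ± 0.36), the shared Orm1 and Orm2 probe set (1.59 ± 0.32), both Hpx probe sets and Apcs (1.87 ± 0.49). The size of the first depends on the floor, because all wild-type WY mice were at it. Saa2 came close, with 4.78 ± 1.38 (SE), limma adjusted p = 0.0563. Without mouse 19 the interaction of Apcs dropped to 1.42 and its adjusted p rose to 0.063, and it also missed the threshold in 9 of the other 11 fits that left out 1 mouse. Hpx, the shared orosomucoid probe set and the Saa2 family probe set passed in all 12 such fits, and so did the Hpx family probe set. The Orm1 interaction was lost in 4 of the 12 (adjusted p of up to 0.0578).

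The strains were also compared directly within each treatment. In control mice, limma called none of the 13 between PPARα-null and wild-type (0.845% of all probe sets passed), and none had an unadjusted p under 0.05. Among WY mice, 9 of 13 were higher in PPARα-null mice (6.38% of all), and Saa3 was one of them, with 191, 70.4 and 122 in PPARα-null against 18.7, 15.7 and 27.8 in wild-type WY mice (log2 difference 2.55 ± 0.77 (SE), limma adjusted p = 0.0355). Among WY+HS mice 7 of 13 were higher in PPARα-null mice (6.23% of all). These contrasts share their groups with the ones described earlier and are not separate evidence.

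Wild-type mice that were fed WY and then heated had low levels as well. WY+HS against control lowered 7 of 13 probe sets (5.38% of all fell and 10.6% passed in either direction), namely the Saa2 family probe set, Orm1, the shared orosomucoid probe set, Orm2, both Hpx probe sets and Apcs. The Orm2 call was lost whichever of the 6 mice was left out (largest adjusted p = 0.134), and that of the Saa2 family probe set in 1 of 6 fits (adjusted p = 0.059). Orm1 read 522, 556 and 495 in WY+HS mice, all within or below the range of the WY mice and all below the controls (log2 change -1.57 ± 0.26 (SE), limma adjusted p = 0.000446). Saa2 read 62.6, 94.0 and 168, below all controls but without passing (log2 change -2.95 ± 0.97 (SE), limma adjusted p = 0.0665). Between WY+HS and WY wild-type mice, limma called no member (0.427% of all), with none at an unadjusted p under 0.05. The WY by HS interaction also called none by limma, in wild-type mice (0.105% of all, none at an unadjusted p under 0.05) or in PPARα-null mice (1.84% of all, 2 members at an unadjusted p under 0.05).

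Set against heated mice on the plain diet, WY+HS wild-type mice were lower in 9 of the 13 probe sets (4.89% of all). Apcs read 2145, 4733 and 1658 in HS mice and 398, 523 and 473 in WY+HS mice, a 5.55-fold difference (log2 difference -2.47 ± 0.34 (SE), limma adjusted p = 0.000102). For the shared orosomucoid probe set the values were 4775, 6929 and 3385 in HS mice and 1174, 1474 and 1165 in WY+HS mice (log2 difference -1.93 ± 0.22 (SE), limma adjusted p = 1.43e-05). The second Lcn2 probe set was among the 9, with 48.3, 82.3 and 56.8 in HS mice and 38.5, 17.9 and 30.1 in WY+HS mice (log2 difference -1.15 ± 0.31 (SE), limma adjusted p = 0.0268). The brighter Lcn2 probe set did not pass and its groups overlapped (log2 difference -1.77 ± 1.02 (SE), limma adjusted p = 0.379).

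Heat alone gave few calls and uneven values. In wild-type HS mice limma called 0 of 13 (0.0403% of all passed), 1 member had an unadjusted p under 0.05, and Scheffe's test, which the study used, also called 0. All 13 log2 changes lay above 0, with a median of 0.36, whereas the median of all probe sets was 0. With arrays set to a common median instead, 2 of the 13 changed sign, and 5 did so without mouse 5, so the uniform direction leaned on that mouse. Without control mouse 1, 1 changed sign. Saa3 was the member with the lowest p. It read 36.6, 40.3 and 69.9 in controls and 716, 131 and 155 in HS mice, so that every HS mouse was above every control (4.17% of all probe sets showed this), but its log2 change of 2.38 ± 0.77 (SE), limma adjusted p = 0.577 did not pass.

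Mouse 5 stood apart within the wild-type HS group. It was the highest of its group in 12 of the 13 probe sets, with Orm2 at 2571 against 422 and 80.6 in mice 4 and 6, and Lcn2 at 1212 against 200.3 and 48.0. Mouse 6 read 426 for Saa2, between the controls, while mice 4 and 5 read 2312 and 3307. Saa3 did not follow this order, because mouse 4 read 716 and mouse 5 read 131. Left out in turn, none of the 6 control and HS mice brought any member past the threshold.

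In PPARα-null mice, HS raised 1 member of 13, Saa3 (3.18% of all probe sets rose and 7.07% passed in either direction). Controls read 198, 56.6 and 209.6 and HS mice 1549, 1499 and 329, and the log2 change was 2.78 ± 0.77 (SE), limma adjusted p = 0.0359. All HS mice were above all controls in 6 of 13 probe sets (8.86% of all), namely both Saa2, Saa3, Hp, Apcs and Lcn2. Saa2 read 339, 342 and 422 in controls and 3279, 3428 and 868 in HS mice, with mice 16 and 17 far above mouse 18 (log2 change 2.55 ± 0.97 (SE), limma adjusted p = 0.145). Lcn2 had the same shape, with 72.9, 80.9 and 173 in controls and 603, 601 and 252 in HS mice (log2 change 2.16 ± 1.02 (SE), limma adjusted p = 0.279). The call for Saa3 was lost without mouse 13, 14, 16 or 17, with an adjusted p of up to 0.179. Mice 16 and 17 also stood apart in the skeletal muscle marker Acta1, given further on, though not in every muscle marker.

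**Figure D3:**
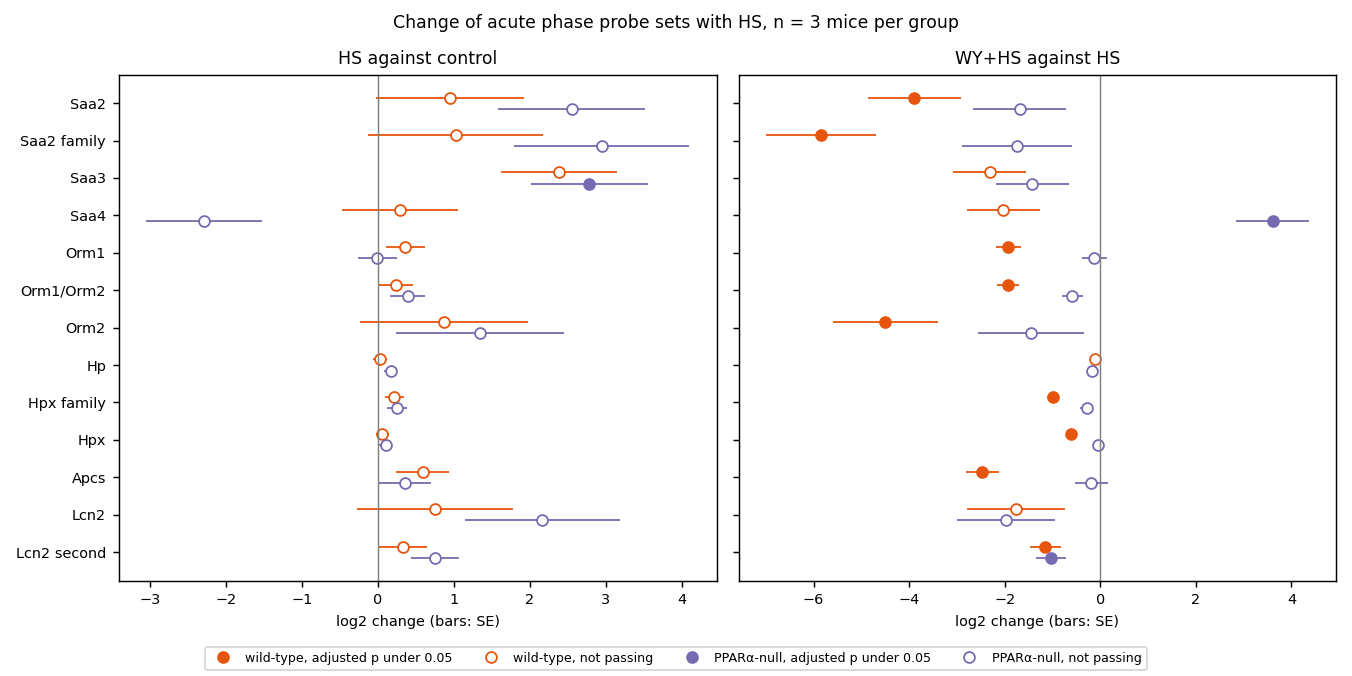
Log2 change (x axis, bars are SE) of the 13 probe sets with HS against control (left) and with WY+HS against HS (right), in wild-type (orange) and PPARα-null (purple) mice, 3 mice per group. On the left 1 purple point (Saa3) is filled, having passed an adjusted p of 0.05. Saa4 is the purple point far from the others in both panels.

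Saa4 was the 1 member with all HS mice below all controls in PPARα-null mice (8.75% of all probe sets). Controls read 87.7, 202 and 25.7, all 3 HS mice were at the floor, and WY+HS mice read 76.1, 357 and 259.8. The HS change was -2.29 ± 0.77 (SE), limma adjusted p = 0.088, which did not pass, while WY+HS was at least 12.2-fold higher than HS (3.61 ± 0.77 (SE), limma adjusted p = 0.00563). Among HS mice Saa4 was the 1 member that differed between strains (14.8% of all probe sets did), at 309, 322 and 222 in wild-type mice and at the floor in PPARα-null mice (log2 difference -4.15 ± 0.77 (SE), limma adjusted p = 0.00126). Of the 13 members, 2 passed between WY+HS and HS PPARα-null mice (11.2% of all), Saa4 and the second Lcn2 probe set, the latter lower at 40.5, 41.6 and 24.4 against 79.1, 99.7 and 44.9 (log2 difference -1.04 ± 0.31 (SE), limma adjusted p = 0.0432). The call of Saa4 held without any 1 of these 6 mice. That of the second Lcn2 probe set was lost in 5 of the 6 fits. The brighter Lcn2 probe set did not pass (log2 difference -1.98 ± 1.02 (SE), limma adjusted p = 0.278), though its WY+HS mice all lay below its HS mice.

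Whether heat acted differently in the 2 strains was tested directly, and limma called none of the 13 for the HS by genotype interaction (1.62% of all passed), with 1 member, Saa4, at an unadjusted p under 0.05 (log2 difference -2.58 ± 1.08 (SE), limma adjusted p = 0.297). For Saa3 the log2 changes of 2.38 in wild-type and 2.78 in PPARα-null mice differed by 0.40 ± 1.08 (SE), so a difference in heat response was not shown. WY+HS against control left no member past the threshold in PPARα-null mice (0.0161% of all; none at an unadjusted p under 0.05). The WY+HS by genotype interaction passed for the 6 probe sets that passed with WY alone (2.68% of all were higher and 5.34% passed in either direction), with sizes of 0.61 for Hpx to 6.03 for the Saa2 family probe set. That of the Saa2 family probe set was lost in 9 of the 12 fits that left out 1 mouse (adjusted p of up to 0.101), and those of Orm1 and the Hpx family probe set in 6 of 12 each (up to 0.0689 and 0.0675). The other 3 passed in all 12.

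The 13 probe sets tended to vary together from mouse to mouse. As a summary, each probe set was standardized over the 24 mice and the 13 values of a mouse were averaged. The mean was highest in wild-type HS mouse 5 (1.44), then in PPARα-null WY mouse 19 (1.08), in PPARα-null HS mice 17 (1.08) and 16 (1.03) and in wild-type HS mouse 4 (0.75). The 6 wild-type WY and WY+HS mice held the last 6 places, from -0.99 to -1.34. High mice therefore occurred in both strains and in 1 group without heat. The lowest means of the HS groups were 0.05 in wild-type mouse 6 and 0.28 in PPARα-null mouse 18. Mouse 6 lay within the wild-type controls (-0.03 to 0.52), whereas mouse 18 lay above all 3 PPARα-null controls (0.01 to 0.23). After the group means were removed, 77 of the 78 pairs of probe sets correlated above 0 over the 24 mice and 46 above 0.5, with a median r of 0.65. These points share their arrays, and some pairs read the same gene, as both Saa2 probe sets do (r = 0.95). The same counts were not made for other probe sets. The members are therefore not shown to vary together more than others. The mean deviation of the members correlated with the deviation of the array median at r = 0.23.

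**Figure D4:**
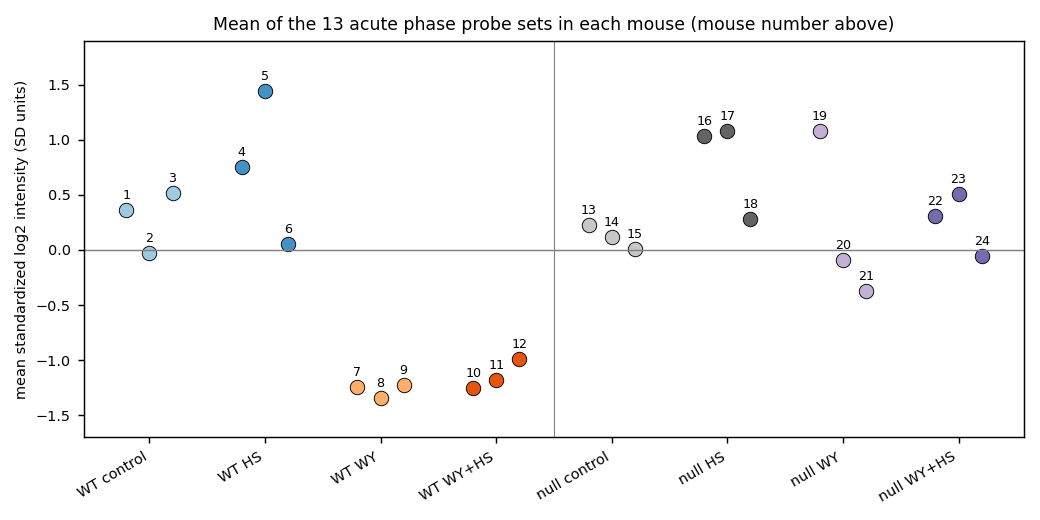
Mean standardized log2 intensity (y axis, in SD units) of the 13 acute phase probe sets in each mouse, grouped by strain and treatment, with the mouse number above each point. The wild-type WY and WY+HS mice lie at -0.99 or below, and mice 4, 5, 16, 17 and 19 lie above 0.7.

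Other genes of the acute phase pathway were counted from lists, with the brightest probe set standing for each gene. Of 15 further positive acute phase genes measured, 8 fell and 1 rose with WY in wild-type mice (median log2 change -0.64, against 0 over all probe sets, of which 10.8% passed). Itih4, an inter-α-trypsin inhibitor chain, read 2653, 2420.3 and 2369 in controls and 314, 300.5 and 344 in WY mice (log2 change -2.96 ± 0.13 (SE), limma adjusted p = 1.23e-10). C9, of the terminal complement complex, changed by -2.66, and the iron hormone gene Hamp by -2.01. Crp, Serpina3n and Itih3 changed by -1.30, -1.25 and -0.89, and the fibrinogen genes Fgg and Fga also fell. Il1rn, which encodes the interleukin-1 receptor antagonist, was the 1 that rose (2.00 ± 0.52 (SE), limma adjusted p = 0.0184). In PPARα-null mice none of the 15 passed with WY, where 0.00805% of all probe sets did. The interaction passed for 7, all higher in PPARα-null mice (2.19% of all were higher and 5.13% passed in either direction).

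Of 9 negative acute phase genes, which the response lowers, 4 fell and none rose with WY in wild-type mice (median log2 change -0.21), where 5.19% of all probe sets fell. These were Ttr, for transthyretin (-1.43), Serpina6, for corticosteroid-binding globulin (-1.07), Ahsg, for fetuin-A (-0.55), and Serpinc1, for antithrombin (-0.25). Ahsg read 5920.2, 5709 and 5920.2 in controls and 3912, 3912 and 4172 in WY mice. The hepatocyte markers, of which Ttr is also one, counted 2 of 6 lower, the other being Cps1 of the urea cycle (-0.34). Their summed level was 29212 to 29932 in controls and 26375 to 28468 in WY mice, and its part in the lower acute phase levels was not tested.

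Cytokines that drive the response were not measurable here, as 5 of 7 ligands, Il6, Il1b, Tnf, Il11 and Ifng, were at the floor on all 24 arrays, which bounds their signal and not their presence. Of 10 receptors, 2 fell with WY in wild-type mice (5.19% of all probe sets fell and 10.8% passed, shares that also apply to the lists that follow). Il6ra, the interleukin-6 receptor, read 88.8, 140.1 and 121 in controls and 15.7, 15.7 and 21.9 in WY mice (log2 change -2.71 ± 0.27 (SE), limma adjusted p = 2.79e-06). Lifr, the receptor for leukaemia inhibitory factor, changed by -2.93. Among 16 signalling genes and transcription factors Stat3 (-0.72), Cebpa (-0.62) and Rela (-0.47) fell and the kinase gene Irak1 rose (0.69). Of 10 inhibitors, Socs2 (-2.16), Nfkbia (-1.52) and Nfkbib (-1.42) fell, and Nfkbie, another inhibitor of NF-kB, rose (1.56). None of these lists held a gene past the threshold with WY in PPARα-null mice, where 0.00805% of all probe sets passed. The interaction passed for 2 receptors, 2 signalling genes and 2 inhibitors (5.13% of all probe sets).

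**Figure D5:**
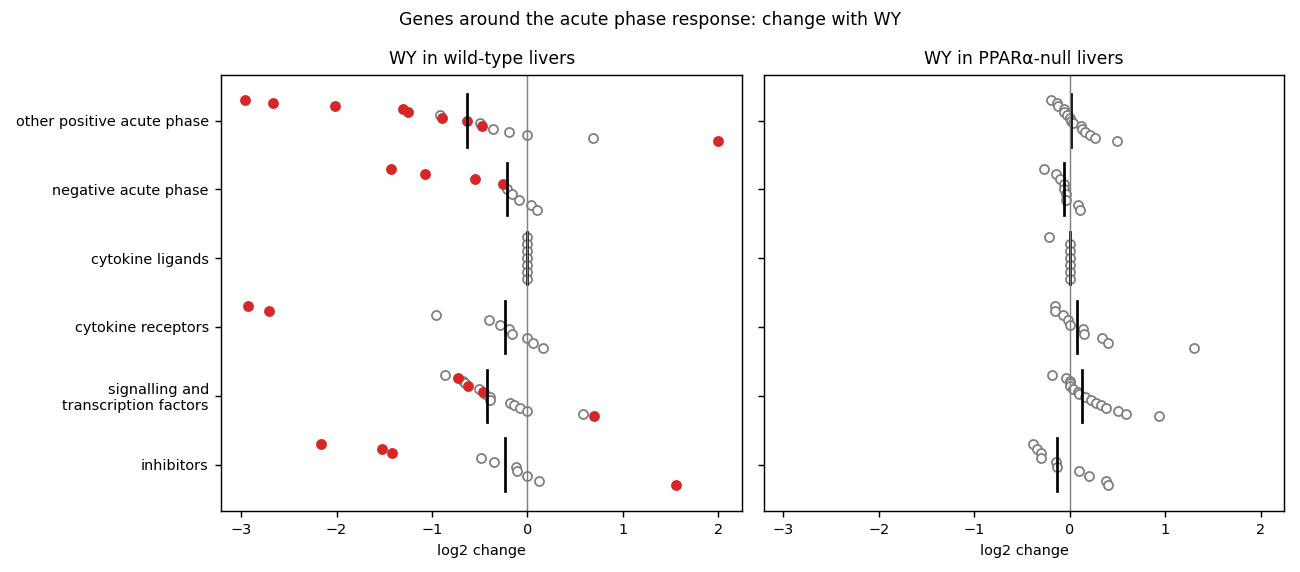
Log2 change with WY (x axis) of the measured genes of 6 lists around the acute phase response, in wild-type (left) and PPARα-null (right) mice, 1 point per gene. Red points passed an adjusted p of 0.05 and bars are list medians. The median of the other positive acute phase genes is -0.64 on the left, and no point is red on the right.

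After heat in PPARα-null mice, 2 of the 15 positive acute phase genes rose (3.18% of all probe sets did), both sensors of bacterial lipopolysaccharide. Lbp read 398, 407 and 497 in controls and 995, 923 and 707 in HS mice (log2 change 1.00 ± 0.29 (SE), limma adjusted p = 0.0424), and its coreceptor Cd14 changed by 1.40. Of 10 inhibitors 1 passed, Pias3, an inhibitor of STAT3, which fell (-1.13), where 7.07% of all probe sets passed. It read 45.6, 59.1 and 31.5 in controls and 15.7, 15.7 (both the floor) and 32.4 in HS mice, so the groups overlapped. In wild-type HS mice no gene of any list passed (0.0403% of all probe sets did).

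Markers of other cells moved beside the heat result in PPARα-null mice. Of 10 neutrophil markers, S100a8 read 21.0, 24.6 and 23.7 in controls and 61.4, 64.0 and 109 in HS mice (log2 change 1.71 ± 0.29 (SE), limma adjusted p = 0.00162), and S100a9 was at the floor in controls and at 43.6, 33.5 and 38.3 in HS mice. The S100a9 change also passed the HS by genotype interaction (limma adjusted p = 0.000259). The summed level of the 10 was 317 to 415 in PPARα-null controls and 441 to 506 in PPARα-null HS mice, while Ngp, Mmp8 and Mmp9 were at the floor on all arrays. The other 8 of the 10 did not pass, and the list had a median log2 change of 0. Ltf, for lactoferrin, read 29.8, 46.3 and 38.3 in controls and 29.8, 27.1 and 31.1 in HS mice. Mouse 18, whose Saa3 was the lowest of its group, had the highest S100a8, and the part of these cells in the Saa3 and Lcn2 levels was not tested. The 9 Kupffer cell and macrophage markers held none that passed with HS or WY in either strain. Their sum was 558 to 995 in PPARα-null controls and 659 to 1018 in PPARα-null HS mice, and 705 to 900 in wild-type controls and 469 to 650 in wild-type WY mice.

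Markers of adipocytes, muscle and pancreas gave few calls. With WY in wild-type mice Fabp4 rose (4.05), 1 of 4 adipocyte markers, and Cela1 fell (-2.29), 1 of 4 pancreas markers (10.8% of all probe sets passed). With HS in PPARα-null mice Fabp4 also rose (1.07), again 1 of 4 (3.18% of all probe sets rose). The other adipocyte markers did not pass. Adipoq read 22.4, 34.5 and 22.9 in PPARα-null controls and 15.7, 16.3 and 24.4 in HS mice, and Retn was at the floor on all arrays. None of 6 skeletal muscle markers passed in these comparisons, and they did not move together in the PPARα-null HS mice. Ckm was at the floor in HS mice 16 and 17 and read 45.6 in mouse 18, against 35.8, 59.8 and 37.3 in PPARα-null controls. Myh4 was at the floor in all of these HS mice. Acta1, for skeletal actin, read 592, 478 and 15.7 in HS mice 16, 17 and 18 and was at the floor in all PPARα-null controls. Tnnc2, a troponin gene, read 181, 168 and 61.7 in the HS mice and 67.8, 83.0 and 65.0 in controls. Elsewhere Acta1 read 662 in wild-type control mouse 1, 15.7 (the floor) in wild-type HS mouse 5 and 29.7 in PPARα-null WY mouse 19, the last 2 being mice with high acute phase levels. The summed level of the 6 was 177 to 932 in PPARα-null HS mice and 177 to 253 in PPARα-null controls. Mice 16 and 17 also had the highest Saa2, Saa3 and Lcn2 of that group, and the part of such RNA in these levels was not tested. The pancreas marker Cela2a read 142, 111 and 44.5 in the same HS mice and 32.2, 86.0 and 42.8 in controls. Cela1 of the same list went the other way, at 151, 149 and 134 in HS mice and 166, 199 and 249 in controls. Prss2 read 43.1, 23.4 and 15.7 in the HS mice, Ctrb1 was above the floor in HS mouse 16 only, and both were at the floor in controls.

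The genes whose pattern most resembled the mean of the 4 Saa probe sets were ranked by Pearson's r over the 24 mice, among 6385 candidate probe sets. They were Il13ra1 (r = 0.89), Fgg (0.88), Ifitm2 (0.88), a further Stat3 probe set (0.87), Nnmt (0.87) and Dnajc3 (0.86). Once group means were removed r was 0.53 to 0.73. Nnmt had a mean of 241 in wild-type controls and was at the floor in all wild-type WY mice, and its mean was 924 in PPARα-null HS mice.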

How the data were processed

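The authors labelled liver RNA from 24 mice, hybridized each to 1 Affymetrix U74Av2 array, analysed the .cel files in Rosetta Resolver and deposited 1 intensity per probe set. The intensities are linear and had background subtracted (24.1% of values were 0 or lower), but the summary method and scaling within that software were not given in the sources used here. Array medians ran from 15.2 to 40.5. Depth does not apply to arrays, and 3 mice per group limit the precision.

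Here 12422 probe sets were quantile normalized, floored at 15.7 (the size of the 10th percentile, which took 42.9% of values) and transformed to log2, so folds of dim probe sets are understated. Folds in the text are 2 to the power of the log2 change. limma 3.58.1 in R 4.3.3 fitted 1 mean per group over all 24 arrays and 19 contrasts. P-values were adjusted by Benjamini-Hochberg over all probe sets, at a threshold of 0.05. The 2996 probe sets at the floor on all arrays stayed in. The shares of all probe sets therefore include some that could neither pass nor separate. The fit was also run on simulated data with added changes and independent noise for each probe set. Those data lack variation shared between probe sets, so the run does not test the results given here. Mice were separate animals, with no batch in the labels, and all values come from 1 table.

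Platform annotation gave 10833 probe sets 1 symbol, 396 several and 1193 none. All member probe sets were named. Of 12 pathway and cell type lists, genes past the threshold were named, at most 6 per list. The members and lists were chosen with earlier results of these data known, and the motifs after the sequences were seen. Alternatives covered scaling, floor, a filter at the 30th percentile, moderation, samples fitted, the study's ANOVA with Scheffe's test and each mouse left out.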

Additional observations from a re-analysis of the deposited data

Results flagged for a closer look

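The effect of WY differed between the strains, as the interaction passed the test (log2 change in PPARα-null minus that in wild-type mice). With WY against control the difference was 7.44 for the Saa2 family probe set, 1.49 for Orm1, 1.59 for the shared Orm1 and Orm2 probe set, 0.84 for the Hpx family probe set, 0.671 for Hpx and 1.87 for Apcs.

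With WY+HS against control the same test passed at 6.03 for the Saa2 family probe set, 1.44 for Orm1, 1.5 for the shared Orm1 and Orm2 probe set, 0.734 for the Hpx family probe set, 0.613 for Hpx and 2.05 for Apcs. Both tests use the same control mice. The Saa2 family probe set was at the floor in all wild-type WY mice, so the size of its difference depends on the floor. The test for a single outlying sample needs at least 4 mice per group and was not run.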

How the results depend on the processing

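Alternatives were not run for WY+HS against HS in wild-type mice, or for the strains compared within HS, WY or WY+HS mice. In the comparisons that were rerun, no member change that passed reversed its sign. Of 31 such changes, 8 alternatives gave 248 values, of which 200 still passed and 48 did not. Of 258 fits without 1 mouse 195 still passed. The number of members called with WY in wild-type mice was 9, and 4 without scaling, and 6 to 8 when 1 mouse was left out. With WY+HS in wild-type mice it was 7 (5 to 7 with 1 mouse left out). For HS in PPARα-null mice it was 1, and 0 with a common median, without scaling, with only the arrays compared or by ANOVA with Scheffe's test, 2 with the floor at the 20th percentile or the filter at the 30th, and 0 to 2 with 1 mouse left out (0 without mouse 13, 14, 16 or 17, and 2 without 15 or 18). When WY+HS was set against HS within PPARα-null mice it was 2, and 1 with a common median, trend and robust moderation or ANOVA with Scheffe's test, 0 without scaling or with only the arrays compared, and 1 to 3 with 1 mouse left out (1 without mouse 16, 17, 22, 23 or 24, and 3 without 18). The WY by genotype interaction called 6, 1 without scaling and 4 to 7 with 1 mouse left out (4 without mouse 1, 3, 9 or 15). The WY+HS by genotype interaction called 6, 2 without scaling or by ANOVA with Scheffe's test, and 3 to 6 with 1 mouse left out (3 without mouse 1, 3 or 15). Alternatives for these 2 interactions were chosen after seeing the data. HS in wild-type mice, the HS by genotype interaction, PPARα-null against wild-type control mice and WY+HS in PPARα-null mice called 0 members in every setting (0 to 0 with 1 mouse left out). The cause of these differences was not tested. Without scaling, the median probe set above the floor shifted by 0.35 on the log2 scale with WY and 0.35 with HS in wild-type mice, and the share of higher calls with WY went from 51.8% to 90.0% (42.8% with a common median). That share also moved without scaling for HS in PPARα-null mice (45.0% to 68.0%, and 29.6% with a common median), WY+HS in wild-type mice (49.3% to 29.6%), WY+HS over HS in PPARα-null mice (54.1% to 31.2%, and 71.7% with a common median) PPARα-null over wild-type controls (38.1% to 11.8%, and 18.5% with a common median) and the interactions of genotype with WY (42.7% to 15.1%), WY+HS (50.2% to 66.9%) and HS (41.8% to 70.4%, and 31.5% with a common median). No paired analysis was possible because the numbers 1 to 24 are given once each, so groups share none, and the labels pair no mice. Signals at the floor set the limit for Orm2, Saa4 and the Saa2 family probe set.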
